A study of Homo sapiens with 12 samples.

Results

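The interferon-stimulated genes described here were IFIT1, IFIT2, IFIT3, ISG15, IFI6, MX1, OAS1, IFI44 and XAF1, taken by symbol from the gene counts of Hs 578T cells. They are 9 of the 55242 genes kept in the series, and all 9 were found and passed the filter on low counts in every comparison. The 12 libraries fall into 4 groups of 3, namely GFP or NRF2 cells with Cyss (cystine, the oxidised dimer of cysteine) and the same cells w/o Cyss. Hs 578T is a triple-negative breast cancer (TNBC) line of mesenchymal stem-like subtype. All cells carried a lentiviral transgene, encoding either GFP, a fluorescent protein that served as control, or NRF2, the transcription factor that drives the antioxidant response. Each sample was kept for 8 h in medium that received 0.8 mM cystine or none, with serum, methionine and glutamine present in every group. No group was left untransduced, the protocols name no added interferon, and mRNA was read from the whole population, so that fewer expressing cells and less RNA per cell cannot be told apart. Neither the labels nor the methods say whether the 3 libraries of a group came from separate cultures, and p-values therefore measure only the spread between these samples, which may be technical. The comparisons ask whether exogenous NRF2 or Cyss deprivation lowers the level of interferon-stimulated genes that cells hold without added interferon.

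Type I interferons bind the receptor formed by IFNAR1 and IFNAR2, which activates the kinases JAK1 and TYK2. The signal leads to the complex ISGF3, of which STAT2 and IRF9 are parts, and ISGF3 binds the interferon-stimulated response element (ISRE) in front of its targets. Many of these genes are also held at a low level without infection, and tumour cells are known to differ in that basal level. NRF2 itself binds another motif, the antioxidant response element (ARE), and many genes induced by interferon gamma carry a gamma-activated site (GAS).

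RefSeq promoter windows, which run from 250 bases before to 50 after an annotated start site, were found for 8 of the 9 genes, all except IFIT2. The ISRE core, written GAAANNGAAA and searched on both strands, was present in the windows of 6 of these 8 genes, as against 4.38% of the 27305 genes in the table and 3.57% of its 35116 windows. The stricter 12-letter form GAAANNGAAACT, which contains the core, was found in the same 6 genes and in 0.322% of all genes. The ARE core TGACNNNGC lay in 2 of the 8, IFIT3 and OAS1, as against 16.1% of all genes. The GAS motif TTCNNNGAA lay in 2 of the 8, MX1 and OAS1, as against 9.38% of all genes, and the GAS match of MX1 overlapped an ISRE core. XAF1 and OAS1 held no ISRE core in these windows, which says only that these letters are not in them. The 140 bases before the start site are printed 5′ to 3′ in the direction of transcription, with the ISRE cores in capitals, for the 3 genes with an entry that fell in NRF2 cells w/o Cyss and for IFIT3, a neighbour of IFIT1 on chromosome 10 that did not. Coordinates are those of GRCh38.p14 and the sequences are from RefSeq.
IFIT1, chr10:89392483-89392622, plus strand: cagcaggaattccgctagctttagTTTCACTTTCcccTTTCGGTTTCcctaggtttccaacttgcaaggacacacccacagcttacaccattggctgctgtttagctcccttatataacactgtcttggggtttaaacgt
ISG15, chr1:1013357-1013496, plus strand: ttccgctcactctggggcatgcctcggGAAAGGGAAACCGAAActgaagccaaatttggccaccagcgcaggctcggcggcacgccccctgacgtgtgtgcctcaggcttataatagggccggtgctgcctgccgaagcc
IFI6, chr1:27672193-27672332, minus strand: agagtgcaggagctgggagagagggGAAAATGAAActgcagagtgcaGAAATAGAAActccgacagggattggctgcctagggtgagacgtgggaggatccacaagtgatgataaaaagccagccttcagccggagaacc
IFIT3, second annotated start, chr10:89332389-89332528, plus strand: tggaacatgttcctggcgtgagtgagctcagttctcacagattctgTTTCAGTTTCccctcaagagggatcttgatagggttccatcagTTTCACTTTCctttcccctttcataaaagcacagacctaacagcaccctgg
The cores in these 4 stretches begin at positions -116 to -51 from the start site, and they lie on the strand of the gene in ISG15 and IFI6 and on the opposite strand in IFIT1 and IFIT3. A match is a description of letters and not of binding, which was not measured.

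**Figure D1:**
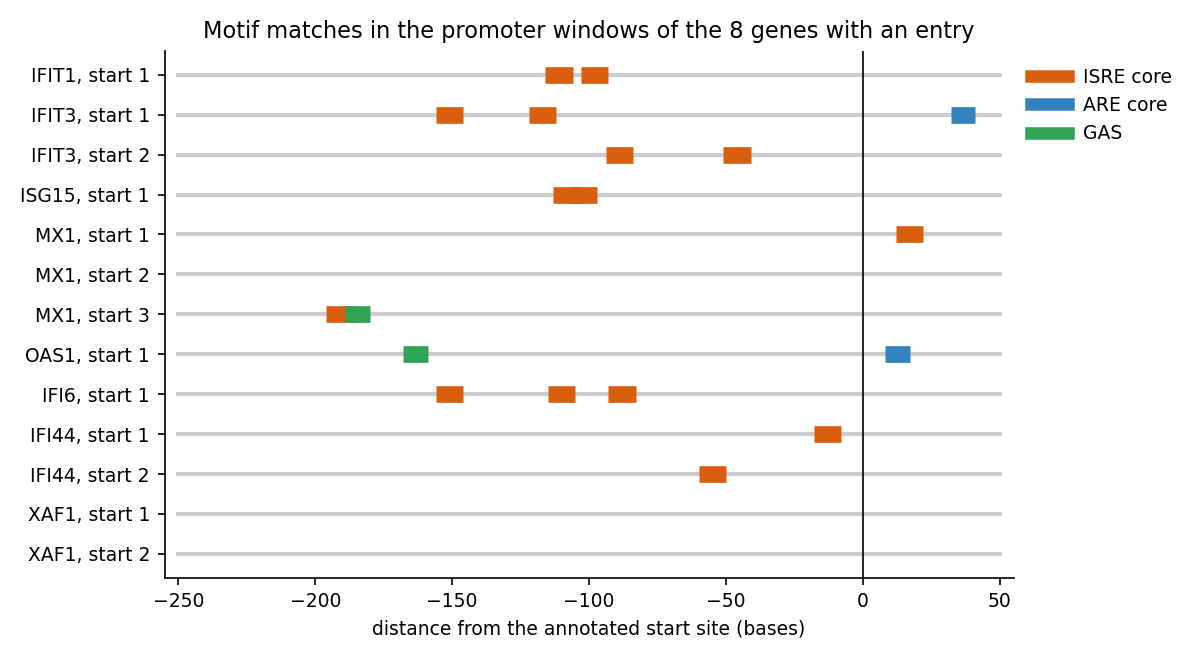
Positions of the ISRE core, ARE core and GAS matches in the RefSeq promoter windows of the 8 genes with an entry, as distance from the annotated start site in bases, with 1 line for each listed start. ISRE cores lie before the start in IFIT1, IFIT3, ISG15, IFI6 and IFI44, after 1 start and before another in MX1, and are missing from the windows of OAS1 and XAF1.

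Reads on genes after removal of rRNA genes numbered 27250993 in the shallowest library, 32857536 at the median and 44596870 in the deepest, and the libraries of GFP cells with Cyss were the deepest. NFE2L2, the gene of NRF2, was higher in NRF2 than in GFP cells in both media, by 0.84 ± 0.0378 (SE) with Cyss and 0.79 ± 0.0525 w/o Cyss on the log2 scale, and the 6 libraries of NRF2 cells were all above the 6 of GFP cells. NQO1, a standard NRF2 target, fell w/o Cyss in both GFP and NRF2 cells, by 0.42 and 0.58 on the log2 scale. Between NRF2 and GFP cells NQO1 was not called, at 0.26 ± 0.0353 with Cyss, below the fold threshold though without overlap, and 0.09 ± 0.0479 w/o Cyss, where the groups overlapped. The labels call the cells epithelial, and the 9 epithelial and hormone receptor markers summed to between 43.7 and 64.1 CPM (counts scaled to the library total) in each library. In normalized counts KRT18 had group means of 796 to 1297, GATA3 of 431 to 534 and KRT8 of 167 to 204, whereas EPCAM, KRT19 and CLDN7 had 3, 9 and 13 reads in the 12 libraries together. The 8 mesenchymal markers summed to between 34715 and 38652 CPM in each library. The 9 blood and immune markers summed to between 1.63 and 2.70 CPM, with CD3E, MS4A1 and CLEC4C at 0 reads, which allows up to 3 reads each on counting error alone. On the first principal component, with 28.4% of the variance, GFP w/o Cyss replicate 3 stood at 3.67, apart from -10.5 and -7.52 for the other libraries of its group, and results that rest on it are also given without it. On the second, with 17.4%, NRF2 w/o Cyss replicate 1 was at 6.94, and the others of its group at -0.710 and -1.33. That NRF2 library had the highest share of reads on no annotated feature, at 7.84%. It was the lowest of its group for IFIT1, IFIT2, ISG15 and IFI6.

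Without added interferon the 9 genes spanned a wide range of levels. In reads per kilobase of merged exons, scaled to a common depth as for CPM, the mean over the 12 libraries was 29.9 ± 5.36 (SD) for IFI6, a small mitochondrial and endoplasmic reticulum protein, and 11.1 ± 1.81 for ISG15, a ubiquitin-like protein that is conjugated to others. IFI44, a cytoplasmic protein of little known function, stood at 1.92 ± 0.250, and IFIT3, a partner of IFIT1, stood at 1.76 ± 0.171. XAF1, an antagonist of the apoptosis inhibitor XIAP, stood at 1.35 ± 0.325. These 5 genes headed the order, and among them the ranges over libraries of IFI6 and ISG15 overlapped neither each other nor those of the next gene.

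IFIT1 and IFIT2, which bind foreign RNA and hinder translation, stood at 0.826 ± 0.263 and 0.370 ± 0.101 in the same unit. MX1, a GTPase that traps viral nucleoproteins, and OAS1, which makes the second messenger that activates RNase L, were at the bottom with 0.0406 ± 0.00888 and 0.0212 ± 0.00910. Neighbours in the order from IFI44 down to IFIT2 overlapped in their range over libraries, as did MX1 and OAS1, whereas IFIT2 and MX1 did not. The merged exons of MX1 and OAS1, at 17984 and 13021 bases, are far longer than their canonical transcripts, at 2776 and 1631 bases. With the length of the canonical transcript instead, the values were 0.263 for MX1 and 0.169 for OAS1, and these genes remained at ranks 8 and 9, whereas IFI44 moved behind IFIT3 and XAF1.

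MX1 and OAS1 were close to the limit of what the depth can show, with 16 to 37 reads and 4 to 15 reads per library. OAS1 passed the filter on low counts (a mean of 10 normalized counts) only through its higher group in each of the 4 comparisons. The reads were counted w/o regard to strand, and parts of some genes share their bases with others in GENCODE 44. Of the exon bases of XAF1, 38.3% overlap PRAL on the opposite strand, 23.1% of those of IFI6 overlap LINC02574 on the same strand, and 13.6% of those of IFIT2 overlap LIPA or an unnamed gene. For IFIT1 and IFI44 no overlap was annotated, and for the other 4 genes it was at most 5.55%. The part of the overlapping genes in these counts was not tested. On GRCh37, the build of the counts, IFIT2 spans chr10:91043451-91069028, IFIT3 chr10:91087064-91137230 and IFIT1 chr10:91152303-91166244, all on the plus strand. ISG15 (chr1:936518-949920), IFI44 (chr1:79115481-79129763), MX1 (chr21:42791947-42841998), OAS1 (chr12:113343661-113371024) and XAF1 (chr17:6658766-6678966) lie on the plus strand and IFI6 (chr1:27992575-27998723) on the minus strand, and all 9 are annotated as protein-coding.

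**Figure D2:**
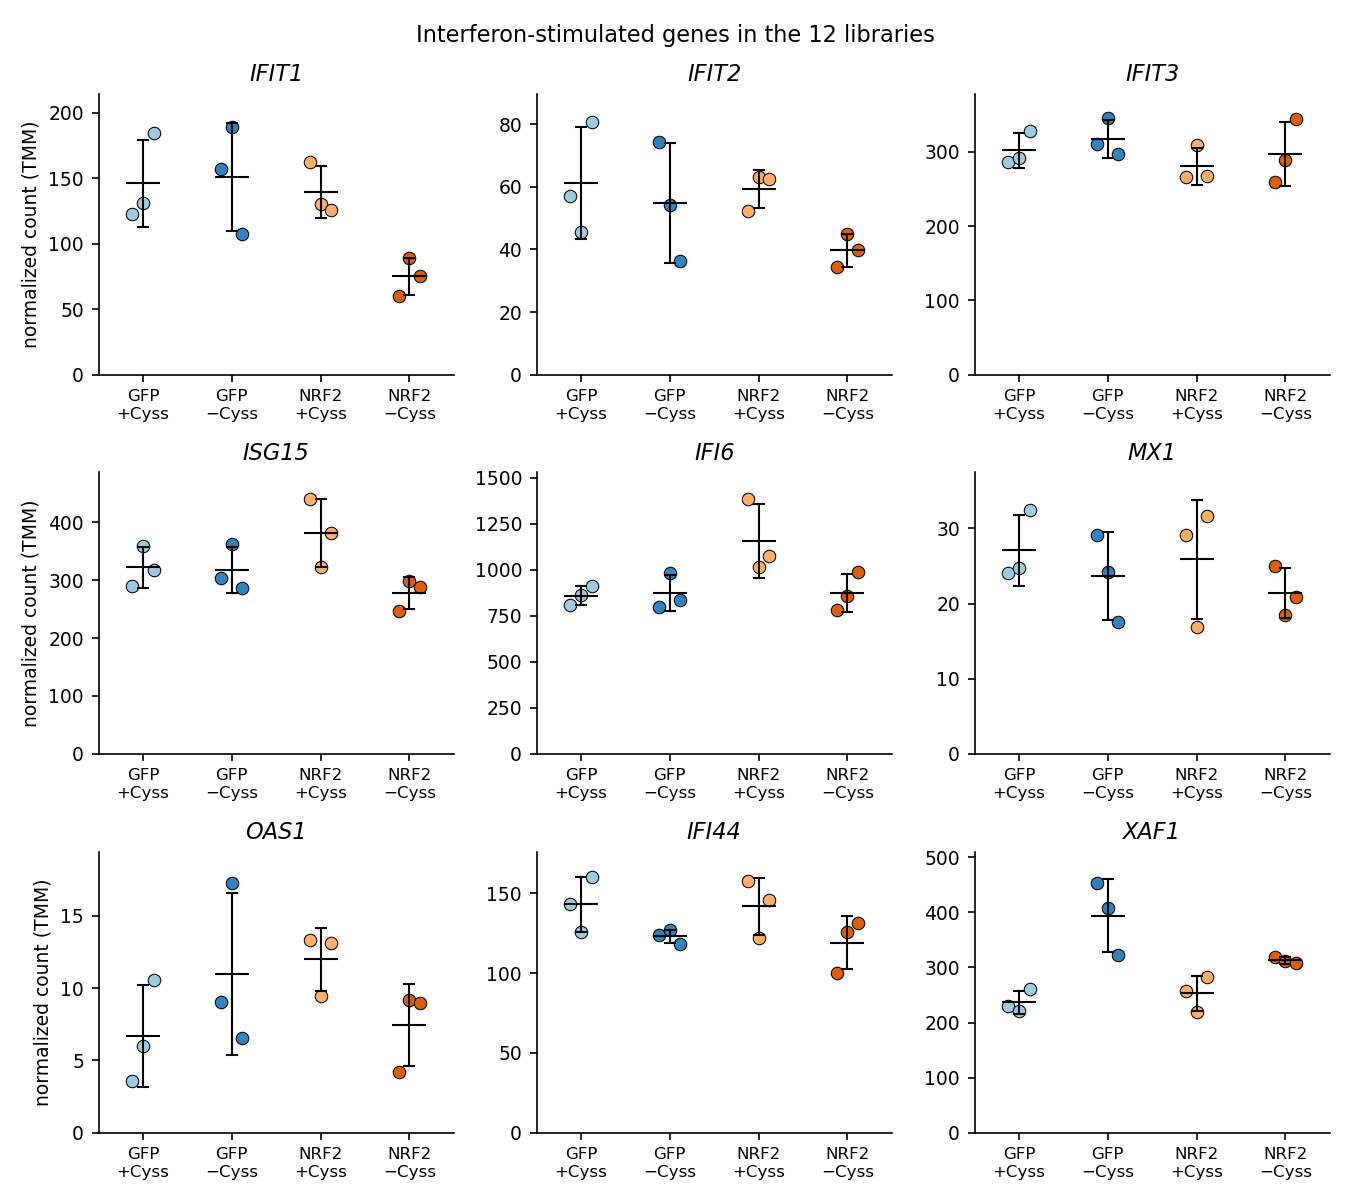
Normalized counts of the 9 genes in the 12 libraries (TMM-scaled to a common depth, each vertical axis starting at 0), with points for libraries and bars for the mean ± SD of the 3 libraries of a group. The NRF2 libraries w/o Cyss lie below all others for IFIT1, and the GFP libraries w/o Cyss lie above all others for XAF1.

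In GFP cells, Cyss deprivation raised XAF1 and left no other of the 9 genes past the test. XAF1 was called higher, whereas the remaining 8 genes had log2FC between -0.21 and 0.69. A gene was called where edgeR's quasi-likelihood test gave a Benjamini-Hochberg adjusted p under 0.1 and the log2FC exceeded 0.32 in size. By this rule 1 of 9 genes was higher and 0 were lower, as against 1.57% and 0.533% of the 17452 genes tested. At an unadjusted p under 0.05 the number was likewise 1 of 9, as against 3160 of the 17452 genes tested. DESeq2 also called 0 lower.

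XAF1 counts, normalized over the 12 libraries, were 230, 221 and 260 in GFP cells with Cyss. They were 453, 407 and 322 in GFP cells w/o Cyss. The groups did not overlap, and replicate 3, the library that stands apart, was the lowest of its group. The log2FC was 0.74 ± 0.11 (SE), with an adjusted p of 0.00175 by edgeR's quasi-likelihood test, and without that library it was 0.87 with an adjusted p of 7.92e-05. XAF1 was the 1 gene of 9 without overlap between these groups, whereas 11.4% of all genes tested were separated upwards and 12.5% downwards. The exact permutation test over 3 against 3 libraries cannot go below 0.1, which XAF1 reached.

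The RNA-binding IFIT genes did not pass the test in GFP cells. IFIT1 counted 123, 131 and 184 with Cyss and 157, 189 and 107 w/o Cyss, a log2FC of 0.05 ± 0.185. IFIT2 counted 57.0, 45.6 and 80.8 with Cyss and 74.5, 54.2 and 36.2 w/o Cyss, a log2FC of -0.12 ± 0.249. The groups overlapped in both genes, and GFP w/o Cyss replicate 3 was the lowest GFP library for each. Without it the log2FC was 0.25 for IFIT1 and 0.10 for IFIT2, neither past the test. IFIT3 was more even, with 286, 291 and 329 against 310, 346 and 297, and a log2FC of 0.08 ± 0.0822.

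ISG15 and IFI6 were also close to their level with Cyss. ISG15 counted 289, 359 and 317 with Cyss and 304, 362 and 287 w/o Cyss, a log2FC of -0.02 ± 0.0994. IFI6 counted 808, 860 and 910 with Cyss and 798, 983 and 836 w/o Cyss, a log2FC of 0.02 ± 0.0752. Both groups overlapped in both genes. IFI44 gave a log2FC of -0.21 ± 0.112, MX1 one of -0.18 ± 0.235 and OAS1 one of 0.69 ± 0.457, and none passed. The median log2FC of the 9 genes was 0.02, as against 0.00 over all genes tested.

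In NRF2 cells, Cyss deprivation lowered IFIT1, IFIT2, ISG15 and IFI6. These are 4 of the 9 genes, as against 5.14% of the 17266 genes tested that were called lower, and 0 of 9 were called higher, as against 6.81%. XAF1, which rose in GFP cells, passed the adjusted p and lay just below the fold threshold, and DESeq2 with that threshold also called 0 higher. At an unadjusted p under 0.05 there were 5 of 9 genes, namely these 4 and XAF1, as against 5887 of the 17266 genes tested. The median log2FC of the 9 genes was -0.40, as against -0.01 over all genes tested.

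IFIT1 had the largest change of the 9 genes. It counted 163, 131 and 126 in NRF2 cells with Cyss and 60.5, 89.0 and 75.6 w/o Cyss. The highest library w/o Cyss was below the lowest with Cyss. The log2FC was -0.88 ± 0.153, with an adjusted p of 7.34e-04 by edgeR's quasi-likelihood test, and leaving out each library in turn gave -1.02 to -0.76, past the test each time. IFIT2 counted 52.2, 63.2 and 62.3 with Cyss and 34.4, 45.0 and 39.8 w/o Cyss, again without overlap. Its log2FC was -0.58 ± 0.175 with an adjusted p of 0.0292 by the same test. The call of IFIT2 was lost without NRF2 with Cyss replicate 2 (-0.52, adjusted p 0.111) or replicate 3 (-0.54, adjusted p 0.104), with DESeq2 (-0.57, adjusted p 0.1002), and with the spread taken over all 12 libraries (-0.57, adjusted p 0.105).

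ISG15 counted 440, 322 and 381 with Cyss and 246, 298 and 289 w/o Cyss. The lowest library with Cyss was 322 and the highest w/o Cyss was 298, so that the groups were separated by a small gap. The log2FC was -0.45 ± 0.108, with an adjusted p of 0.00796 by edgeR's quasi-likelihood test, and it remained past the test without any 1 library, at -0.56 to -0.33. IFI6 counted 1384, 1012 and 1073 with Cyss and 780, 855 and 987 w/o Cyss, with a log2FC of -0.40 ± 0.102 and an adjusted p of 0.0122 by the same test. NRF2 with Cyss replicate 1 was the highest of the 12 libraries for both ISG15 and IFI6, and it was also the shallowest library. Whether its depth has a part in these values was not tested. Without it the log2FC of IFI6 was -0.25 with an adjusted p of 0.0655, below the fold threshold.

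IFIT3, the third IFIT gene, did not follow IFIT1 and IFIT2. It counted 266, 309 and 267 with Cyss and 260, 289 and 344 w/o Cyss, a log2FC of 0.09 ± 0.102. IFI44 counted 158, 122 and 145 with Cyss and 100, 126 and 131 w/o Cyss, a log2FC of -0.24 ± 0.132 that did not pass. Both overlapped between the groups. MX1 gave -0.26 ± 0.273. OAS1 gave -0.66 ± 0.378, with 11, 9 and 12 reads against 4, 9 and 9 reads, and did not pass although its normalized counts did not overlap.

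XAF1 counted 257, 219 and 282 in NRF2 cells with Cyss and 319, 312 and 308 w/o Cyss. All 3 libraries w/o Cyss were higher than all 3 with Cyss. The log2FC was 0.31 ± 0.0945, with an adjusted p of 0.0284 by edgeR's quasi-likelihood test, so that the gene stayed uncalled by the fold threshold alone. It was called without NRF2 with Cyss replicate 1 (0.33, adjusted p 0.0645) or replicate 3 (0.40, adjusted p 0.0212), or without NRF2 w/o Cyss replicate 3 (0.34, adjusted p 0.0154). In all, 5 of the 9 genes were lower without overlap and 1 was higher, as against 18.8% and 19.1% of all genes tested. Among the 5 is OAS1, which passed the filter on low counts only through its level with Cyss (11.2 against 6.97 normalized counts).

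**Figure D3:**
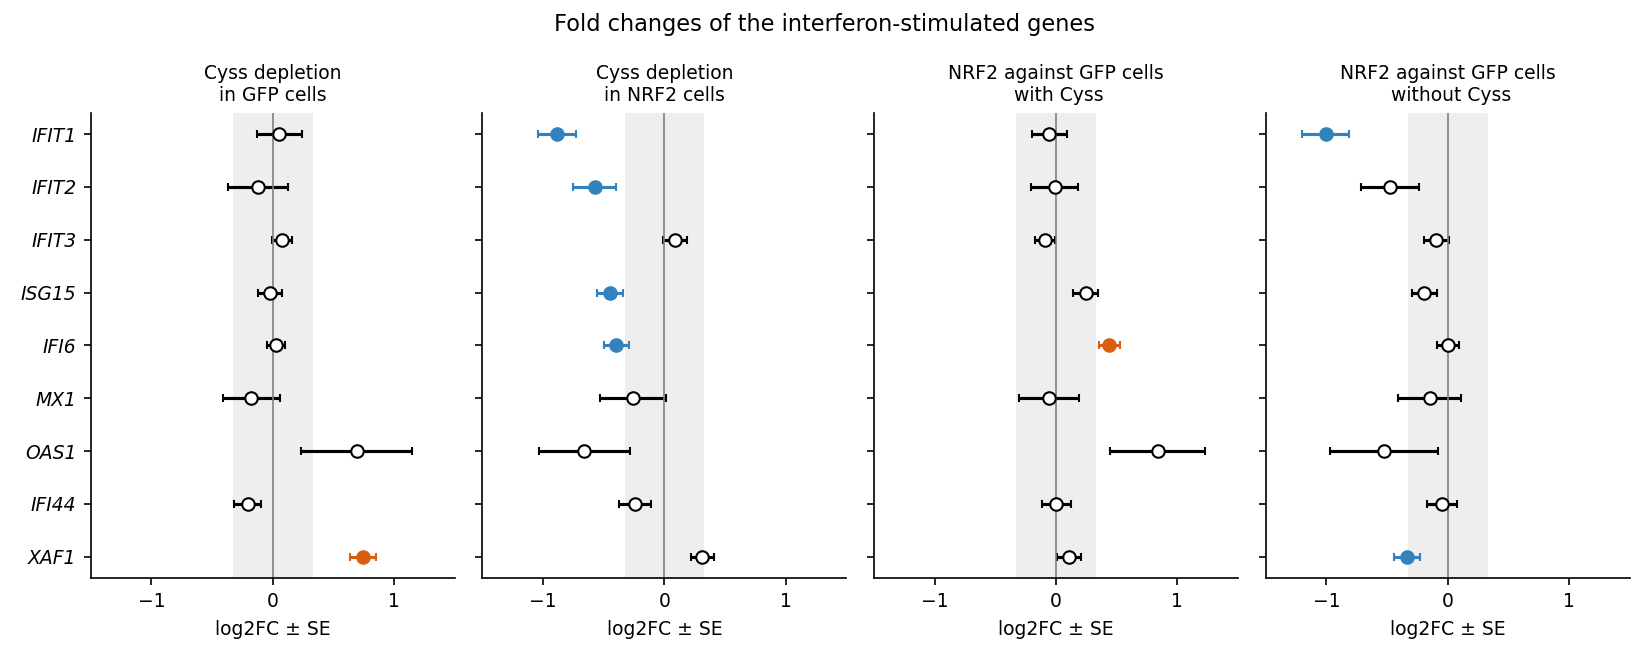
Log2FC ± SE of the 9 genes in the 4 comparisons, with blue points for genes called lower, orange for genes called higher, open points for the rest and a grey band for log2FC below 0.32 in size. The called points in blue are IFIT1, IFIT2, ISG15 and IFI6 for Cyss depletion in NRF2 cells and IFIT1 and XAF1 for NRF2 against GFP cells w/o Cyss, and those in orange are XAF1 for Cyss depletion in GFP cells and IFI6 for NRF2 against GFP cells with Cyss.

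With Cyss present, NRF2 cells did not have lower levels of any of the 9 genes that passed the test, and IFI6 was higher. The count was 0 of 9 lower and 1 of 9 higher, as against 0.201% and 1.36% of the 17449 genes tested. At an unadjusted p under 0.05 there were 3 of 9 genes, as against 3321 of the 17449 genes tested. DESeq2 also called 0 lower. IFI6 counted 808, 860 and 910 in GFP cells and 1384, 1012 and 1073 in NRF2 cells, w/o overlap. Its log2FC was 0.44 ± 0.0868, with an adjusted p of 0.00952 by edgeR's quasi-likelihood test. Without NRF2 with Cyss replicate 1, which holds the value of 1384, it was 0.29 with an adjusted p of 0.0446, below the fold threshold.

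ISG15 leaned the same way as IFI6 but overlapped between the groups, with 289, 359 and 317 in GFP cells and 440, 322 and 381 in NRF2 cells. The log2FC of 0.24 ± 0.102 had an adjusted p of 0.202. It was called without NRF2 with Cyss replicate 2 (0.35, adjusted p 0.0858) or without GFP with Cyss replicate 2 (0.33, adjusted p 0.0920). OAS1 gave 0.84 ± 0.391 on 24 reads summed over GFP cells and 32 over NRF2 cells, and did not pass, with an adjusted p of 0.258. IFIT1 gave -0.05 ± 0.145, IFIT2 -0.01 ± 0.193, IFIT3 -0.09 ± 0.0839, MX1 -0.06 ± 0.248, IFI44 0.00 ± 0.118 and XAF1 0.11 ± 0.0970. The median of the 9 genes was 0.00, close to the -0.0039 of all genes tested, and 1 gene was higher and 0 were lower without overlap, as against 12.5% and 12.3%.

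Without Cyss, IFIT1 and XAF1 were lower in NRF2 than in GFP cells. These 2 of 9 genes compare with 4.09% of the 17297 genes tested that were called lower, and 0 of 9 were called higher, as against 5.98%. At an unadjusted p under 0.05 the same 2 of 9 genes were found, as against 5962 of the 17297 genes tested. DESeq2 also called 0 higher. The comparison shares its NRF2 libraries w/o Cyss with the depletion in NRF2 cells and its GFP libraries w/o Cyss with the depletion in GFP cells, so that the values are not independent of those above.

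IFIT1 counted 157, 189 and 107 in GFP cells and 60.5, 89.0 and 75.6 in NRF2 cells. The groups did not overlap, and the lowest GFP value was that of the library that stands apart. The log2FC was -1.01 ± 0.196, with an adjusted p of 0.00474 by edgeR's quasi-likelihood test, and without that library it was -1.19 with an adjusted p of 5.16e-04. XAF1 counted 453, 407 and 322 against 319, 312 and 308, which leaves a gap of few reads between the lowest GFP and the highest NRF2 library. Its log2FC was -0.33 ± 0.107 with an adjusted p of 0.0450 by the same test. The call of XAF1 was lost without GFP w/o Cyss replicate 1 (-0.22, adjusted p 0.206) or replicate 2 (-0.31, adjusted p 0.149), and without NRF2 w/o Cyss replicate 2 (-0.33, adjusted p 0.125) or replicate 3 (-0.31, adjusted p 0.0708).

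The other genes did not pass. IFIT2 gave -0.48 ± 0.237 with an adjusted p of 0.178, and it was called without GFP w/o Cyss replicate 3, at -0.70 with an adjusted p of 0.0373. ISG15 gave -0.19 ± 0.104, IFIT3 -0.09 ± 0.103, MX1 -0.15 ± 0.257, OAS1 -0.53 ± 0.445, IFI44 -0.04 ± 0.123 and IFI6 0.00 ± 0.0897. IFI6, which was higher in NRF2 cells with Cyss, thus stood at 798, 983 and 836 in GFP cells and 780, 855 and 987 in NRF2 cells w/o Cyss. The median of the 9 genes was -0.19, as against -0.02 over all genes tested. There were 2 genes lower and 0 higher without overlap, as against 20.8% and 17.7%.

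Whether the response to Cyss deprivation differed between NRF2 and GFP cells was tested as an interaction over the 12 libraries. IFIT1, IFI6 and XAF1 had a lower response in NRF2 cells, which is 3 of 9 genes as against 6.13% of the 17674 genes tested, and 0 of 9 had a higher one, as against 8.97%. At an unadjusted p under 0.05 there were 5 of 9 genes, these 3 with ISG15 and OAS1, all with a negative difference. Over all genes tested the number was 4376 of 17674. The median difference of the 9 genes was -0.43 on the log2 scale, as against -0.01 over all genes tested.

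For IFIT1 the response of GFP cells was 0.05 and that of NRF2 cells -0.88, and the difference was -0.94 ± 0.275 with an adjusted p of 0.0399 by edgeR's quasi-likelihood test. For IFI6 the response was 0.02 and -0.40, and the difference was -0.42 ± 0.146 with an adjusted p of 0.0785 by the same test. For XAF1 the response was 0.74 and 0.31, both positive, and the difference was -0.43 ± 0.157 with an adjusted p of 0.0931. IFIT1 and IFI6 thus fell in NRF2 cells and had values near 0 in GFP cells, whereas XAF1 was higher w/o Cyss in both cell populations. ISG15 lay just outside the threshold, at -0.43 ± 0.161 with an adjusted p of 0.105. OAS1 gave -1.35 ± 0.611 with an adjusted p of 0.177.

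These differences rest on few libraries. IFIT1 missed the threshold without NRF2 with Cyss replicate 1 (-0.83, adjusted p 0.101) or without GFP w/o Cyss replicate 2 (-0.76, adjusted p 0.125), and passed without each of the other 10 libraries. IFI6 missed it, at -0.42 to -0.28, when any 1 of 6 libraries was left out, namely NRF2 with Cyss replicate 1, NRF2 w/o Cyss replicate 1 or 2, GFP with Cyss replicate 1 or 2, or GFP w/o Cyss replicate 2. XAF1 missed it, at -0.45 to -0.32, when any 1 of 9 was left out, namely NRF2 with Cyss replicate 1 or 3, NRF2 w/o Cyss replicate 1, 2 or 3, GFP with Cyss replicate 1 or 2, or GFP w/o Cyss replicate 1 or 2. ISG15 came to pass, at -0.54 to -0.44, without NRF2 with Cyss replicate 2, NRF2 w/o Cyss replicate 3, GFP with Cyss replicate 2 or GFP w/o Cyss replicate 3, and it also passed with DESeq2 (adjusted p 0.0768). Without GFP w/o Cyss replicate 3, the library that stands apart, the differences were -1.13 for IFIT1, -0.45 for IFI6 and -0.55 for XAF1, each past the threshold.

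Of 16935 other genes with sufficient counts, those most like the mean profile of 8 members over the 12 libraries, on the log2 scale and leaving out OAS1 for its low counts, were APOL3, SMDT1, RPS4XP8, RP11-33B1.1 and SLC25A29. Their Pearson r with the profile was 0.919, 0.901, 0.891, 0.889 and 0.883. The 12 libraries fall into 4 groups and share their depth and scaling, so these values are a description. Among the members themselves r with the profile ran from 0.873 for IFIT1 and 0.771 for IFI44 down to 0.332 for IFIT3 and 0.126 for XAF1, whose own values are part of it. The highest r between 2 members was 0.821, for ISG15 and IFI6.

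The other genes of the interferon pathway were taken from lists of 127 genes in all. Cyss deprivation lowered 0 and raised 4 of 101 tested in GFP cells, as against 0.533% and 1.57% of all genes tested. It lowered 11 and raised 9 of 102 in NRF2 cells, as against 5.14% and 6.81%. NRF2 against GFP cells gave 0 lower and 2 higher of 103 with Cyss, as against 0.201% and 1.36%, and 6 lower and 8 higher of 102 w/o Cyss, as against 4.09% and 5.98%. The interaction gave 11 lower and 9 higher of 102, as against 6.13% and 8.97%, so that the number higher was close to the share over all genes. Their median log2FC was -0.01, -0.06, 0.06, -0.01 and -0.05 in the same order, nearer to 0 than that of the 9 genes in the depletion of NRF2 cells, w/o Cyss and in the interaction.

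Interferon genes themselves were at the limit of detection except IFNE, which encodes interferon epsilon. IFNB1 had 3 reads in the 12 libraries together, IFNA1 16, IFNA2 3 and IFNG 1, and IFNK, IFNL2 and IFNL3 had 0 reads, which allows up to 3 reads each on counting error alone. IFNE counted 78.4, 80.1 and 70.3 in GFP cells with Cyss, 72.5, 63.4 and 96.5 in GFP cells w/o Cyss, 104, 84.3 and 84.2 in NRF2 cells with Cyss, and 146, 133 and 142 in NRF2 cells w/o Cyss. The last group lay above all others. IFNE was higher w/o Cyss in NRF2 cells by 0.64 ± 0.126 (adjusted p 0.00208, edgeR's quasi-likelihood test) and higher in NRF2 than in GFP cells w/o Cyss by 0.86 ± 0.148 (adjusted p 0.00242). The direction was opposite to that of IFIT1 in the same libraries.

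Of the 12 receptor and signal transducer genes, 11 were tested and 0 were called in the 4 comparisons. Over all genes tested, the share called lower or higher in a comparison ran from 0.201% to 6.81%. At an unadjusted p under 0.05 there were 3, 6, 3 and 1 of the 11, and none had both the adjusted p and the fold. Over all genes tested these numbers were 3160 of 17452, 5887 of 17266, 3321 of 17449 and 5962 of 17297. STAT2 gave 0.21 ± 0.0468 in NRF2 against GFP cells with Cyss, with an adjusted p of 0.0213 by edgeR's quasi-likelihood test, below the fold threshold. In the depletion of NRF2 cells, where 4 of the members fell, STAT2 gave -0.01 ± 0.0566, IRF9 -0.32 ± 0.182, IFNAR1 0.11 ± 0.0466, IFNAR2 -0.05 ± 0.0817, JAK1 0.08 ± 0.0422 and TYK2 -0.01 ± 0.0499, none past the test. In the interaction JAK2 alone of the 11 passed, at 0.26 ± 0.0960 with an adjusted p of 0.0994.

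Nucleic acid sensors, adaptors and interferon regulatory factors gave 16 or 17 tested of 20. In GFP cells w/o Cyss IFI16, a DNA sensor, rose by 0.37 ± 0.0406, and it rose by 0.37 ± 0.0566 in NRF2 cells. IFIH1, the sensor MDA5, fell by 0.46 in NRF2 cells w/o Cyss (adjusted p 0.0446, edgeR's quasi-likelihood test), the direction of IFIT1. In that comparison DDX58 rose by 0.30 ± 0.0633 and MAVS by 0.23 ± 0.0546, the opposite direction. Their adjusted p by the same test was 0.00364 and 0.00657, with both below the fold threshold. Of the 17 genes of this list tested there, 8 had a log2FC below 0. TICAM1, the adaptor of TLR3, was higher in NRF2 than in GFP cells w/o Cyss by 0.33 ± 0.0732. TMEM173, the adaptor STING, was not called in any comparison, with log2FC between 0.05 and 0.10 in the 4. IRF7 was close to the filter of 10 normalized counts and was not called where it was tested. DHX58, the RIG-I-like receptor LGP2 and itself interferon-induced, was noticed after its values were seen: it was higher by 0.62 ± 0.188 in GFP cells w/o Cyss and by 0.73 ± 0.194 in NRF2 cells with Cyss, and its interaction was -1.0 ± 0.256 (adjusted p 0.0211).

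Inhibitors of interferon production or signalling moved in both directions. SOCS3, which blocks JAK kinases, rose by 0.96 ± 0.0885 in NRF2 cells w/o Cyss, and was higher in NRF2 than in GFP cells w/o Cyss by 0.77 ± 0.117. TNFAIP3, the ubiquitin-editing enzyme A20, rose by 0.59 ± 0.0661 and was higher by 0.57 ± 0.0812 in the same comparisons. TREX1, a DNase that removes cytosolic DNA, fell by 0.57 on the log2 scale in NRF2 cells w/o Cyss, with an adjusted p of 3.19e-05 by edgeR's quasi-likelihood test. NLRX1, a mitochondrial inhibitor of MAVS signalling, fell by 0.38 and these 4 were the called genes of the 9 tested in both comparisons, 2 lower and 2 higher. Over all genes tested, 5.14% were lower and 6.81% higher in the depletion of NRF2 cells, and 4.09% and 5.98% in NRF2 against GFP cells w/o Cyss. SOCS3 and TNFAIP3 are also induced by cytokines and stresses other than interferon.

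Of 50 further type I interferon-stimulated genes, 46 were tested in NRF2 cells, where 5 fell and 2 rose w/o Cyss, as against 5.14% and 6.81% of all genes tested, and their median log2FC was -0.10. The 5 that fell were PARP9 and PARP10, which are ADP-ribosyltransferase family members, UBA7, the enzyme that activates ISG15 for conjugation, PLSCR1, a phospholipid scramblase, and HERC6. Their decreases on the log2 scale ran from -0.49 for HERC6 to -0.33 for PLSCR1, and PARP9 fell by 0.46. HERC6 overlapped between the groups, at 51.0 ± 2.91 (SD) normalized counts w/o Cyss and 72.4 ± 18.5 with Cyss. Its adjusted p was 0.0765 by edgeR's quasi-likelihood test. The 2 that rose were APOL6 (0.48 ± 0.0895) and ISG20, an exonuclease (1.69 ± 0.333, from 8.95 to 28.3 normalized counts). ISG20 passed the filter on low counts only through its level w/o Cyss. In GFP cells 0 of 45 were lower and APOL6 was the 1 higher, at 0.60 ± 0.0678, as against 0.533% and 1.57% of all genes tested.

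NRF2 against GFP cells gave 0 lower and 1 higher of these 46 with Cyss, as against 0.201% and 1.36% of all genes tested. Without Cyss 3 were lower and 2 higher, as against 4.09% and 5.98%. RSAD2, the antiviral enzyme viperin, was higher in NRF2 cells in both media, by 1.47 ± 0.380 and 1.44 ± 0.312, from a low level of 7.6 and 7.5 normalized counts. It passed the filter on low counts only through the NRF2 groups, at 21.4 and 20.7. NMI fell by 0.45 in NRF2 cells w/o Cyss relative to GFP cells (adjusted p 0.00184, edgeR's quasi-likelihood test), PARP9 fell by 0.35, and RTP4 fell by 0.91. HERC6, ISG20, RSAD2 and RTP4 were named after their values were seen. The ISRE core was found in the promoter windows of 28 of 40 of these genes with an entry, and in 0 of 10 receptor and transducer genes.

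Genes of the interferon-gamma response and of MHC class I presentation gave 3 lower and 3 higher of 18 tested in the depletion of NRF2 cells. Over all genes tested 5.14% were lower and 6.81% higher. The median log2FC of the 18 genes was -0.17. PSMB9, an immunoproteasome subunit, fell by 0.50, GBP1, a guanylate-binding protein, by 0.44, and TAP1, the peptide transporter, by 0.35 on the log2 scale. ICAM1, an adhesion molecule that is also an NF-kB target, rose by 1.39 ± 0.121, WARS, the tryptophanyl-tRNA synthetase, by 0.58 ± 0.0437 and GBP3 by 0.41 ± 0.0598. In GFP cells WARS was the 1 called of 19, higher by 0.63 ± 0.0351, as against 1.57% of all genes tested. WARS is also a target of the amino acid response. With Cyss 0 of 19 differed between NRF2 and GFP cells, as against 0.201% lower and 1.36% higher of all genes tested. At an unadjusted p under 0.05 there were 9 of 19, as against 3321 of 17449. Without Cyss 1 of 18 was lower, PSMB9, and 2 were higher, ICAM1 and TAPBP, as against 4.09% and 5.98%. TAPBP varied widely in the NRF2 libraries, at 3847 ± 712 (SD) normalized counts, as against 2943 ± 41.2 in GFP cells. Whether its call rests on 1 library was not tested. The ISRE core was found in 13 of the 18 genes of this list with a promoter entry, and in 4 of 13 of the sensor list.

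**Figure D4:**
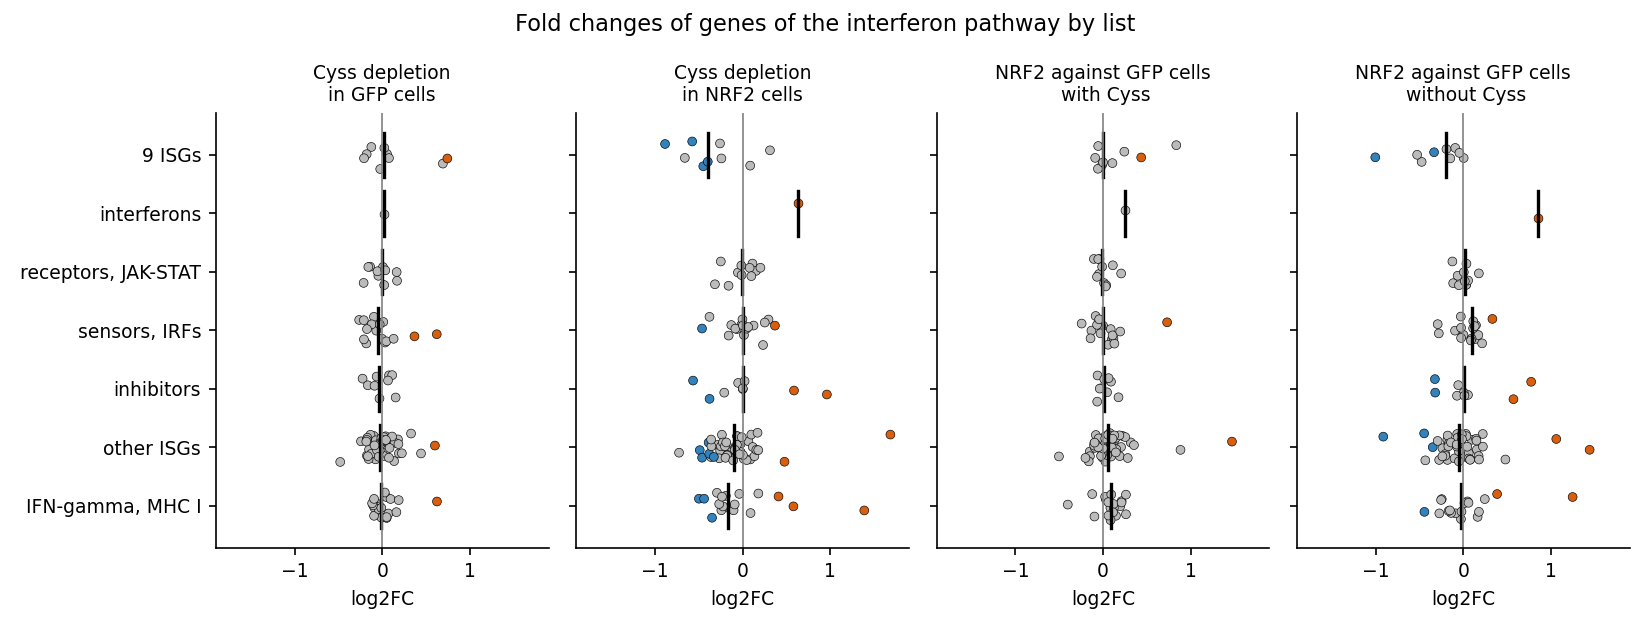
Log2FC of each tested gene of 7 lists in the 4 comparisons, in blue where called lower, orange where called higher and grey otherwise, with a black bar for the median of the list. In the depletion of NRF2 cells the median of the 9 genes is -0.40, that of the other interferon-stimulated genes is -0.10 and that of the interferon-gamma and MHC class I list is -0.17.

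Markers of the line and of other cell types moved with some of these comparisons. In the depletion of NRF2 cells 3 of the 8 mesenchymal markers were higher, ZEB1, CD44 and AXL, and 1 was lower, TWIST1. Their log2FC ran from -0.38 to 0.42. Of the 5 epithelial markers tested KRT18 alone was called, at 0.66. Over all genes tested 5.14% were lower and 6.81% higher in this comparison. KRT18 was also the called epithelial marker of 5 tested in GFP cells, at 0.39, as against 1.57% of all genes tested that were higher. In NRF2 against GFP cells PGR, which counted 21.8 with Cyss and 16.4 w/o Cyss in NRF2 cells, was higher in both media. PGR passed the filter on low counts only through the NRF2 groups, with GFP cells at 4.91 with Cyss and lower still w/o Cyss. CDH1 was lower w/o Cyss, at 4.24 in NRF2 against 10.3 in GFP cells, and passed that filter only through the GFP group. PTPRC, a leukocyte marker, was lower by 0.78 in NRF2 than in GFP cells w/o Cyss, at 20.4 against 35.0 normalized counts. The summed level of the 9 blood and immune markers was 1.73 to 2.70 CPM in GFP cells with Cyss, 1.92 to 2.40 in GFP cells w/o Cyss, 1.89 to 2.06 in NRF2 cells with Cyss and 1.63 to 1.92 in NRF2 cells w/o Cyss, and the part of these markers in the results on interferon-stimulated genes was not tested.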

How the data were processed

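RNA from Hs 578T cells expressing GFP or NRF2, with 3 libraries in each of 4 groups, was sequenced by the authors from single ends after TruSeq v2 mRNA preparation. The authors mapped the reads to hg19 with TopHat2 2.1.0 and counted them per gene with HTSeq 0.11.2 in intersection-nonempty mode w/o regard to strand, and they deposited raw counts for 55765 symbols, with no normalization. The annotation release used for counting is not given in the sources used here. Between 15.9 and 17.1% of the reads of a library were not assigned to a gene, and 523 genes named as rRNA were removed. Replicates of a group differed by more than sampling noise, and none were merged.

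Each comparison used its own 6 libraries. TMM factors were computed after genes below a mean of 10 normalized counts in both groups had been dropped, and the remaining genes entered edgeR's quasi-likelihood test, adjusted by Benjamini-Hochberg over all of them (R 4.3.3, edgeR 4.0.16, limma 3.58.1). Calls required an adjusted p below 0.1 together with a log2FC larger than 0.32 in either direction, and an interaction over the 12 libraries at an adjusted p under 0.1. Counts per library are normalized over the 12 libraries, and fold changes come from the 6 libraries compared. The procedure was tested on simulated data. DESeq2 1.42.0, its size factors, scaling by library size, other filters and thresholds, a replicate block and leaving out each library in turn were run as alternatives. Levels per length used merged exons of GENCODE 44 on GRCh37, and the length of the canonical transcript was added after seeing the data. Plots were made with Python 3.11.15 and matplotlib 3.10.9.

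The members, the gene lists and the tests were chosen with earlier results of these data known. The genes named are the 9 members, NFE2L2 and NQO1, in each comparison up to 6 called genes of the pathway lists by smallest p whose higher group reached a mean of 50 normalized counts, the central genes of the pathway (1 of which is not reported here), and the 5 genes most like the members' mean profile. Genes of the lists named beside these were picked after their values were seen, among them IFIH1, NLRX1, UBA7, PARP9, PARP10, PLSCR1, GBP1, TAP1, PSMB9, TAPBP, JAK2 and the marker genes.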

Additional observations from a re-analysis of the deposited data

Results flagged for a closer look

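The response to Cyss deprivation differed between NRF2 and GFP cells by edgeR's interaction test for 3 of the 9 interferon-stimulated genes. The difference, NRF2 minus GFP cells on the log2 scale, was -0.94 for IFIT1 (adjusted p 0.0399), -0.42 for IFI6 (adjusted p 0.0785) and -0.43 for XAF1 (adjusted p 0.0931). Groups of 3 libraries are too small for a test of single outlying values, and no such test was run.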

How the results depend on the processing

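Over the alternatives other than leaving out a library, 412 values of single genes kept their direction and their side of the threshold, 6 passed it, 4 no longer did and 7 changed sign. None of the 7 was a call: IFI44 in NRF2 against GFP cells with Cyss was -0.00098 with DESeq2, -0.00035 with its size factors, -0.010 with no filter, -0.00058 with rRNA genes kept and -0.0023 with the replicate block, and with library size scaling IFI6 in NRF2 against GFP cells w/o Cyss was -0.028 and IFIT3 in the interaction -0.042. With no fold threshold 1 member, XAF1, was called higher in the depletion of NRF2 cells, and at an adjusted p under 0.05 the interaction called 1, IFIT1. The cause was not tested where it is not the construction of the alternative.

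Leaving out 1 library gave 3 to 4 members called lower in the depletion of NRF2 cells, with 3 without NRF2 with Cyss replicate 1 (IFI6 lost), 2 or 3 (IFIT2 lost), and moved the number called higher to 0 to 1 in the depletion of NRF2 cells and 0 to 2 in NRF2 against GFP cells with Cyss, and the number called lower to 1 to 3 in NRF2 against GFP cells w/o Cyss and 0 to 4 in the interaction. The log2FC that changed sign were again uncalled, and ran over IFI6 -0.068 to 0.089, IFIT1 -0.13 to 0.25, IFIT2 -0.42 to 0.12, ISG15 -0.12 to 0.070 in the depletion of GFP cells, IFIT3 -0.021 to 0.17 in the depletion of NRF2 cells, IFI44 -0.091 to 0.10, IFIT1 -0.17 to 0.14, IFIT2 -0.20 to 0.24, MX1 -0.24 to 0.19 in NRF2 against GFP cells with Cyss, IFI44 -0.11 to 0.063, IFI6 -0.081 to 0.10, MX1 -0.32 to 0.038 in NRF2 against GFP cells w/o Cyss, IFI44 -0.14 to 0.067, IFIT3 -0.10 to 0.090, MX1 -0.33 to 0.11 in the interaction. Calls that leaving out a library ended are given beside each gene.

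Same-numbered libraries correlated at -0.048 to 0.14 in their deviations from the group means. In 4 of 12 pairs each library correlated best with the other of its number. With 3 libraries in a group, these values cannot show whether the replicate numbers pair the libraries. With the replicate block the counts of members called were 0 lower and 1 higher in the depletion of GFP cells, 4 and 0 in that of NRF2 cells, 0 and 1 with Cyss and 2 and 0 w/o Cyss, as without it, and 4 lower in the interaction. At 4 to 15 reads per library the standard error of OAS1, 0.378 to 0.457 in the 4 comparisons, was above that of the other members.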

Other observations

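The interaction also passed for members of the pathway lists, all named here after their values were seen. None of those below was called in the depletion of GFP cells. In that of NRF2 cells PSMB9, PARP10, GBP3, ICAM1, ISG20, SOCS3, TNFAIP3, TREX1, NLRX1 and IFNE were called. Among genes of antigen presentation, HLA-C (-0.29 ± 0.0845), B2M (-0.21 ± 0.0643) and the immunoproteasome subunits PSMB8 (-0.36 ± 0.112) and PSMB9 (-0.55 ± 0.179) had a lower response to Cyss deprivation in NRF2 than in GFP cells. GBP3 (0.38 ± 0.0902) and ICAM1 (1.20 ± 0.186) had a higher one. Of the other interferon-stimulated genes, IFI35 (-0.32 ± 0.117), PARP10 (-0.31 ± 0.0953), NMI (-0.27 ± 0.0924) and LGALS3BP (-0.19 ± 0.0665) were lower and ISG20 (1.58 ± 0.467) was higher. Of the RNA sensing pathway, DDX58, which encodes RIG-I, was higher by 0.28 ± 0.0873 and its adaptor MAVS by 0.20 ± 0.0737. Among the inhibitors SOCS3 (0.81 ± 0.143) and TNFAIP3 (0.52 ± 0.102) were higher, and NLRX1 (-0.49 ± 0.125) and TREX1 (-0.40 ± 0.120) were lower. IFNE was higher (0.61 ± 0.201). The adjusted p of these genes by edgeR's quasi-likelihood test ran from 9.69e-04 for ICAM1 to 0.0977 for IFI35.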
